A study of Rattus norvegicus with 15 samples.

Results

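The 33 genes described here encode the proteins of blood coagulation and fibrinolysis: the fibrinogen chains, the proteases and cofactors that lead to thrombin, the inhibitors that restrain it, and the proteins that dissolve fibrin. They were chosen by gene symbol, with earlier results of these data known. Of the 33 genes, 32 had a row among the 32623 genes of the count table, and Hrg was not analysed here. After the filter on low counts, 31 of them were tested among 14417 genes in all, 13628 of which were protein coding. For adult liver, 24 of the 33 genes were classed as made mainly by hepatocytes and 9 as made mainly by endothelial, stromal or myeloid cells. Both classes were assigned from general knowledge, with earlier results of these data known, and were not tested here. The tested genes comprised 23 of the hepatocyte-made and 8 of the other class. The remaining gene, F13a1, the A subunit of the fibrin-crosslinking factor XIII, did not pass the filter, with 1 to 13 counts in every library.

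Coagulation starts when tissue factor, a membrane protein kept away from blood by healthy endothelium, binds factor VII, and it proceeds through a cascade of proteases to thrombin, which turns fibrinogen into fibrin. Antithrombin and the protein C pathway limit thrombin, while plasmin, released from plasminogen by tissue-type or urokinase-type plasminogen activators, dissolves the clot. Hepatocytes secrete most of these proteins into plasma, and low plasma levels of both procoagulant and anticoagulant factors are well known in cirrhosis. Tissue factor, factor VIII, thrombomodulin, the protein C receptor and the plasminogen activators were placed in the class of endothelial, stromal or myeloid cells. Which cells gave their RNA in these livers was not tested.

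Male Wistar rats with an initial weight of 75 to 100 g were studied in 3 groups, and poly(A) RNA of whole liver was sequenced with 1 library per rat. Control rats received neither toxin nor drug. Rats of the cirrhosis group inhaled carbon tetrachloride (CCl4), which injures hepatocytes, for 12 weeks and drank water with 0.35 g/L phenobarbital, which induces the enzymes that activate CCl4. Rats of the cirrhosis & eplerenone group received the same CCl4 and phenobarbital and, from week 8 to week 12, eplerenone at 100 mg/kg body weight, an antagonist of the mineralocorticoid receptor. Livers were taken 7 to 10 days after the last CCl4. The values come from 4 controls (replicates 2 to 5), 5 rats with cirrhosis and 5 with cirrhosis & eplerenone, and control replicate 1 was not analysed here. The study left out 1 control that stood apart from the other 4 in a principal component analysis of expression, which can narrow the control range used here. Per the study, rats were picked for sequencing by how well cirrhosis or treatment had succeeded, so the groups are no random draw. Animal labels began with 13 or 16 in control and with 15 or 20 in both CCl4 groups, so whatever these numbers mark cannot be told apart from CCl4 treatment.

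Between 16157491 and 21574767 reads per library were counted on genes. Levels are given as FPM, fragments counted for a gene per 1000000 counted in the library, with library sizes scaled by TMM, and 3 counts, the smallest amount taken as visible, stood for 0.121 to 0.191 FPM, which covers counting error only. Gene length was not corrected for, so levels were not compared between genes. The liver label held in its hepatocyte markers, 7 of 8 with a row, whose summed level ran from 169971 to 196360 FPM in control, from 133628 to 190266 with cirrhosis and from 101798 to 191716 with eplerenone. In whole tissue, fewer cells of a type and less RNA per cell cannot be told apart. A pair of rats stood apart. Cirrhosis replicate 5 was the lowest of its group for 5 of the 8 genes of other cells, and cirrhosis & eplerenone replicate 3 was the highest of its group for 7 of them, so that results resting on them are given with and without them. The pair was taken from earlier results of these data and not from this count, by which cirrhosis & eplerenone replicate 2 was the lowest of its group for 6 of the 8 and cirrhosis replicate 4 the highest for 5. A gene is named as called (a DEG) where edgeR and DESeq2 each gave an FDR below 0.05, and log2FC with their standard errors (SE) are those of edgeR.

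In cirrhosis, 6 coagulation genes of the hepatocyte-made class fell below control and 4 genes of the other class rose. Of the 31 genes tested, those called lower were all hepatocyte-made (F9, F11, F13b, Fga, Serpinc1 and Proz), and those called higher were all of the other class (F3, Plaur, Plat and Procr). The classes were assigned with earlier results of these data known, so this split of the calls is not independent evidence. Among all protein coding genes tested, 6.72% were called lower and 13.8% higher. The median log2FC was -0.52 over the 23 hepatocyte-made genes, 0.97 over the 8 others and -0.01 over all genes. Estimates were below 0 for 21 of the 23 and above 0 for 7 of the 8, while scaling to total counts in place of TMM, which moved the median of all genes up by 0.29, left 15 of the 23 below 0. With that scaling 1 hepatocyte-made gene was called lower (F11) and 2 higher (F7 and Kng1), and the 4 calls of the other class remained, beside 2.47% of all protein coding genes called lower and 21.7% higher. F11 and F3 were the only members whose call held when any 1 of the 14 rats was left out. Without cirrhosis replicate 5, 10 members were called lower and 5 higher, beside 14.1% and 18.4% of all protein coding genes.

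**Figure D1:**
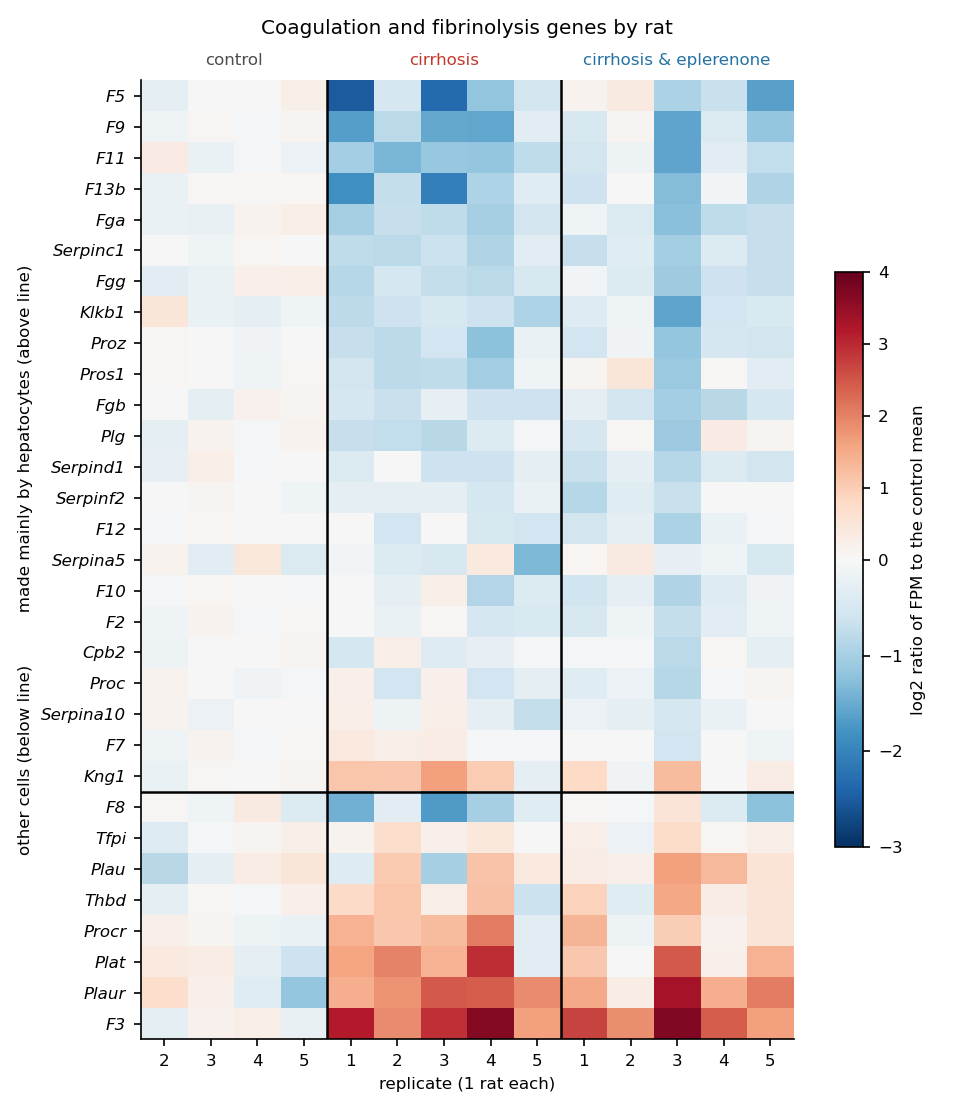
Heat map of 31 coagulation and fibrinolysis genes in 14 rats. Color gives the log2 ratio of FPM to the control mean (blue lower, red higher), rows are genes ordered by log2FC of cirrhosis against control within each class, and columns are rats by replicate. Most hepatocyte-made genes are blue in both CCl4 groups, F3, Plaur, Plat and Procr are red in most of these rats, and Kng1, F7 and F8 have estimates against the direction of most of their class under TMM scaling.

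The fibrinogen chains, which assemble into 1 plasma protein and are encoded side by side on chromosome 2, all had estimates below 0 in cirrhosis, and 1 of the 3, Fga, was called. Fga (ENSRNOG00000024848), the alpha chain, had 5777, 5620, 7214 and 7739 FPM in controls 2 to 5, 3302, 4103, 3885, 3310 and 4466 FPM in cirrhosis 1 to 5, and 6060, 4881, 2763, 3894 and 4116 FPM in cirrhosis & eplerenone 1 to 5. Every rat with cirrhosis lay below every control, while 1 rat with eplerenone lay within the control range. Fga fell to 0.579 times the control level (log2FC -0.79, SE 0.24, edgeR FDR 0.0326), a call that was lost when any of controls 3 to 5 or cirrhosis 1, 3 or 4 was left out. Fgg (ENSRNOG00000025074), the gamma chain, had 3986, 4353, 5708 and 5958 FPM in control, 2747, 3489, 3061, 2839 and 3575 in cirrhosis and 4720, 3737, 2375, 3224 and 3092 with eplerenone. Its cirrhosis values again lay wholly below control, but its log2FC of -0.67 (SE 0.23) missed the threshold in edgeR (FDR 0.0519) and passed in DESeq2 (FDR 0.00893). Fgb (ENSRNOG00000007092), the beta chain, had 7528, 6308, 8505 and 8196 FPM in control, 5387, 4783, 6487, 4999 and 4924 in cirrhosis and 6232, 5216, 3796, 4274 and 5395 with eplerenone. Here cirrhosis replicate 3 reached into the control range, and the log2FC was -0.52 (SE 0.21, edgeR FDR 0.0894).

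**Figure D2:**
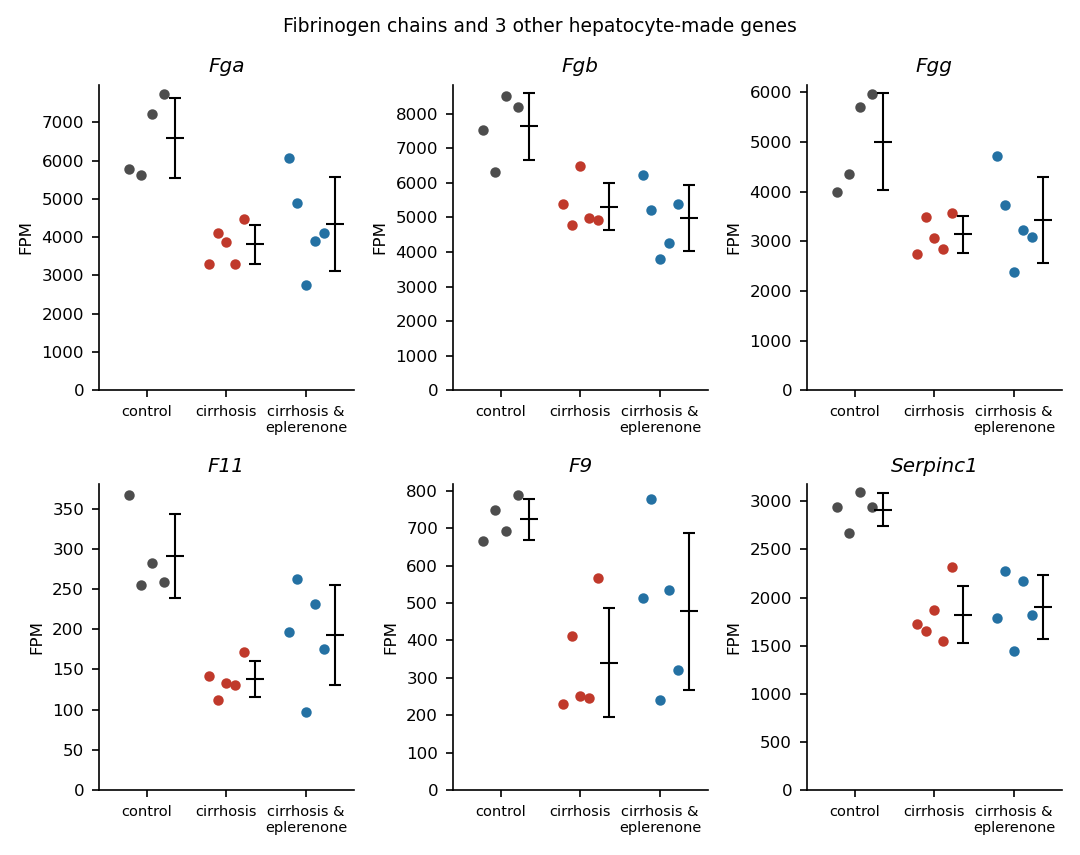
Levels (FPM, linear axis from 0) of 6 hepatocyte-made genes by group. Points are rats, and the bar to the right of each group is the mean with its SD (n = 4, 5 and 5). For Fga, Fgg, F11, F9 and Serpinc1 all 5 rats with cirrhosis lie below the control range, for Fgb 1 reaches into it, and the cirrhosis & eplerenone rats spread more widely, from 242 to 778 FPM for F9.

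F13b (ENSRNOG00000012613, chromosome 13), the carrier subunit of factor XIII, had 196, 229, 232 and 237 FPM in control and 62.3, 136, 53.8, 117 and 173 in cirrhosis, with no overlap. It fell to 0.486 times control (log2FC -1.04, SE 0.33, edgeR FDR 0.0387). With eplerenone it had 146, 228, 91.2, 210 and 119 FPM, 2 of the 5 rats within the control range. Its call was lost without any 1 control and without cirrhosis 1, 3 or 4.

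The promoters of Fga, Serpinc1, F9 and F11, all called lower, are shown with those of Fgb and Fgg, which belong to the same protein as Fga, and of Plaur, a gene called higher. RefSeq windows on GRCr8, from 250 bases before to 50 bases from the start site on, were found for 25 of the 33 genes and not for F3, F8, Serpind1, Serpina10, Plat, Thbd, Cpb2 and Hrg. Capitals mark the letters of a searched site on either strand. The sites were CAAAGTCCA for HNF4, TTGCNNAA for C/EBP, CTGGGAA for the IL-6 response and the corticosteroid receptor element. The windows of Fga (chr2:170671919-170672218, plus strand), Fgb (chr2:170700826-170701125, minus strand), Fgg (chr2:170652833-170653132, plus strand), Serpinc1 (chr13:75790308-75790607, plus strand), F9 (chrX:143388392-143388691, plus strand), F11 (chr16:53720252-53720551, plus strand) and Plaur (chr1:89181113-89181412, plus strand) read as follows.
Fga: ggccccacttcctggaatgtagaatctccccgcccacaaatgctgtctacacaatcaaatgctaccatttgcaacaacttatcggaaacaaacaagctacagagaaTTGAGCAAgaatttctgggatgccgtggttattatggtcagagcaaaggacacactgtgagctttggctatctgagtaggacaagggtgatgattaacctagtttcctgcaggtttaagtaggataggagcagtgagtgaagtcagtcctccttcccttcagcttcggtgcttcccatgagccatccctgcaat
Fgb: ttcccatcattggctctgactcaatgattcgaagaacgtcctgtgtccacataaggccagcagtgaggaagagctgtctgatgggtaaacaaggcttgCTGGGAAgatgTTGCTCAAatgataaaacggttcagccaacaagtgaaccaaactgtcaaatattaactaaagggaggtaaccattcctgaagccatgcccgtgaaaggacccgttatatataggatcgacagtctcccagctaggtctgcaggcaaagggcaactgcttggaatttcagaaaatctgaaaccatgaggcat
Fgg: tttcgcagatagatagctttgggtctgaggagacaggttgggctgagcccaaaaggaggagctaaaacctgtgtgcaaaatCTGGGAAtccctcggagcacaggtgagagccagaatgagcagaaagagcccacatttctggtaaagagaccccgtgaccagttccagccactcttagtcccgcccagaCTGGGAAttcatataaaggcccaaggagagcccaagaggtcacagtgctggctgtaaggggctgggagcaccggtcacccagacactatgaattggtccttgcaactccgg
Serpinc1: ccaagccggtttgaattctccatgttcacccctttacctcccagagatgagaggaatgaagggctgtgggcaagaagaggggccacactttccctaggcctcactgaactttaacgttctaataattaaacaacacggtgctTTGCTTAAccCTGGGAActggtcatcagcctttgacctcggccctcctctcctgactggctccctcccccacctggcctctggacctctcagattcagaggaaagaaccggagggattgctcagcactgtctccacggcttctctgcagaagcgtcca
F9: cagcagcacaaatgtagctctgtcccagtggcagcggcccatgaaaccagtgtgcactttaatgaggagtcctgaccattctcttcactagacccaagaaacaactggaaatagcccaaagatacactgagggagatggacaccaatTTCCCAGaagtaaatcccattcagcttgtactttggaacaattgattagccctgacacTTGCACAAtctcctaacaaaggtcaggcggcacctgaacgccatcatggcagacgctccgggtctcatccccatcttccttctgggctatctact
F11: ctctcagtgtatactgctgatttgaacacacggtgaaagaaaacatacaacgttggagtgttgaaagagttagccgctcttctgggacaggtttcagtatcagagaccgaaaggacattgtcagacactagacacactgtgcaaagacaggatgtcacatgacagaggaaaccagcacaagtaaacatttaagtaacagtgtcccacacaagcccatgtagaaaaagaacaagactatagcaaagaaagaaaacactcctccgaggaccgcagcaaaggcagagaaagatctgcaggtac
Plaur: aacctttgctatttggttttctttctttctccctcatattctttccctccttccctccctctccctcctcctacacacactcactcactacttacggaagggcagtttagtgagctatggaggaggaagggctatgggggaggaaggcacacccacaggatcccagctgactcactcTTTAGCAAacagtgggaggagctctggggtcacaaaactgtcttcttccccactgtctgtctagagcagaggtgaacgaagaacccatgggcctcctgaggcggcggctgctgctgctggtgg

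The C/EBP letters stood in 9 of the 25 windows, among them Fga, Fgb, F9, Serpinc1 and Plaur, and in 10.6% of all 33469 windows. The IL-6 letters stood in 6 of the 25, in Fgg at 2 places, in Fgb, F9, Serpinc1, Kng1 and Plg, and in 11.3% of all windows. The HNF4 letters were found in Proz alone of the 25 and in 0.391% of all windows, and the corticosteroid receptor element in Serpinf2 alone and in 0.439%. In Fgb, F9, Serpinc1 and Kng1 both C/EBP and IL-6 of letters stood in the same window, and no match overlapped another in the 25 windows. At least 1 of the sites stood in 12 of the 25 windows and in 21.4% of all windows, while the F11 window held 0. A match describes letters only, and its absence says no more than that these letters are not in the window.

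Among the vitamin K-dependent proteases that lead to thrombin, F9 was called and F2, F7 and F10 were not. F9 (ENSRNOG00000003430, chromosome X), factor IX of the intrinsic pathway, had 665, 749, 692 and 788 FPM in control, 230, 412, 251, 245 and 567 in cirrhosis, and 514, 778, 242, 534 and 321 with eplerenone. No rat with cirrhosis reached the control range, and cirrhosis replicates 2 and 5 were the highest of their group. F9 fell to 0.471 times control (log2FC -1.09, SE 0.33, edgeR FDR 0.0334), and to a log2FC of -1.35 without cirrhosis replicate 5. The call was lost when any control or cirrhosis 1, 3 or 4 was left out. F2, prothrombin, had a log2FC of -0.21 (SE 0.20), F10, factor X, of -0.22 (SE 0.22) and F7, factor VII, of 0.17 (SE 0.16), none of them called. Under total counts F2 and F10 turned to 0.07 and 0.05.

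The cofactors F5 and F8 were not called, although their values spread widely. F5, factor V, like Kng1 further on, is given by rat because its values stood out once seen. It ranged from 93.8 to 134 FPM in control and had 20.1, 80.3, 22.5, 50.2 and 77.4 FPM in cirrhosis, all below control. Its coefficient of variation was 14.5% in control and 57.5% in cirrhosis, and its log2FC of -1.18 (SE 0.43) missed the threshold in edgeR (FDR 0.0632) but passed in DESeq2 (FDR 0.0310). F5 was called lower without cirrhosis replicate 5 (log2FC -1.39, edgeR FDR 0.0308), and likewise without cirrhosis replicate 2 or cirrhosis & eplerenone replicate 5. F8, factor VIII, which in liver is made by sinusoidal endothelium, had 12.2, 10.6, 15.1 and 8.84 FPM in control, 4.33, 9.22, 3.56, 5.85 and 9.05 in cirrhosis and 12.1, 11.2, 16.7, 8.80 and 4.97 with eplerenone. It was the only gene of the non-hepatocyte class with an estimate below 0, at a log2FC of -0.87 (SE 0.34, edgeR FDR 0.0796). Without cirrhosis replicate 5 F8 was called lower (log2FC -1.02, edgeR FDR 0.0406). The summed level of 7 endothelial markers (of 8 listed) was 259 to 291 FPM in control, 113 to 289 in cirrhosis and 200 to 278 with eplerenone, and 1 of them, Kdr, was called lower in cirrhosis. The part of the endothelium in the F8 values was not tested.

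In the contact system, which starts clotting on negatively charged surfaces, F11 fell and no other gene was called. F11 (ENSRNOG00000013684, chromosome 16), factor XI, had 367, 255, 283 and 259 FPM in control, 142, 112, 133, 131 and 172 in cirrhosis and 197, 263, 97.6, 231 and 176 with eplerenone. The highest rat with cirrhosis was well below the lowest control. F11 fell to 0.474 times control (log2FC -1.08, SE 0.24, edgeR FDR 0.00802), stayed called under total counts (log2FC -0.80) and had log2FC from -1.17 to -0.95 with any 1 rat left out. Klkb1, plasma prekallikrein, had a log2FC of -0.67 (SE 0.25, edgeR FDR 0.0665) with no overlap between groups, and F12, factor XII, of -0.31 (SE 0.22, edgeR FDR 0.306). Kng1, kininogen, which carries the bradykinin sequence, had the largest estimate above 0 among hepatocyte-made genes. It had 1131, 1350, 1320 and 1424 FPM in control, 2800, 2771, 4089, 2676 and 1062 in cirrhosis and 2286, 1220, 3160, 1288 and 1617 with eplerenone, and 4 of 5 rats with cirrhosis lay above all controls while replicate 5 lay below them. Its log2FC of 1.04 (SE 0.35) had an edgeR FDR of 0.0501 and was called without cirrhosis replicate 5 (log2FC 1.24, edgeR FDR 0.00752). The rat genome holds close relatives of Kng1, and reads that fit several places were counted at each, so the level of Kng1 is uncertain to that extent.

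Among the inhibitors of thrombin and factor Xa, Serpinc1 and Proz fell. Serpinc1 (ENSRNOG00000002783, chromosome 13), antithrombin, the main plasma inhibitor of thrombin and factor Xa, had 2944, 2675, 3094 and 2940 FPM in control, 1721, 1655, 1871, 1551 and 2319 in cirrhosis and 1791, 2273, 1443, 2176 and 1816 with eplerenone. Both CCl4 groups lay wholly below control. Serpinc1 fell to 0.626 times control in cirrhosis (log2FC -0.68, SE 0.20, edgeR FDR 0.0290), a call lost without any 1 control or without any of cirrhosis 1 to 4. Proz (ENSRNOG00000019700, chromosome 16), protein Z, the cofactor through which Serpina10 inhibits factor Xa, had 402, 378, 355 and 385 FPM in control, 237, 222, 257, 162 and 331 in cirrhosis and 256, 355, 171, 268 and 259 with eplerenone. Every rat with cirrhosis lay below the lowest control. Proz fell to 0.635 times control (log2FC -0.65, SE 0.22, edgeR FDR 0.0492) in a call that held in 3 of 14 fits that left out 1 rat. Serpina10 itself had a log2FC of -0.08 (SE 0.20), turning to 0.20 under total counts. Serpind1, heparin cofactor II, had -0.38 (SE 0.19, edgeR FDR 0.168) and Serpina5, the protein C inhibitor, -0.28 (SE 0.31), the latter at 5.22 to 9.71 FPM in control and turning to 0.03 under total counts. Tfpi, tissue factor pathway inhibitor, an endothelial product, had 0.31 (SE 0.21, edgeR FDR 0.280).

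The protein C pathway, in which thrombin bound to thrombomodulin activates protein C on its endothelial receptor, had 1 called gene. Procr (ENSRNOG00000019330, chromosome 3), that receptor, had 4.83, 4.51, 3.72 and 3.63 FPM in control, 11, 8.73, 10.1, 17.2 and 3.33 in cirrhosis and 10.8, 3.75, 8.18, 4.74 and 5.90 with eplerenone. In cirrhosis 4 of 5 rats lay above all controls and replicate 5 lay below them. Procr rose 2.42-fold (log2FC 1.27, SE 0.39, edgeR FDR 0.0354), with a log2FC of 1.49 without cirrhosis replicate 5, and its call was lost without any 1 control or without cirrhosis 1, 3 or 4. Thbd, thrombomodulin, had a log2FC of 0.67 (SE 0.37, edgeR FDR 0.202). Proc, protein C itself, and Pros1, its cofactor protein S, had -0.16 (SE 0.23) and -0.62 (SE 0.26, edgeR FDR 0.0994), and Proc turned to 0.10 under total counts. For Pros1 the values did not overlap, although cirrhosis replicate 5 and the lowest control both rounded to 204 FPM.

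F3 (ENSRNOG00000011800, chromosome 2), tissue factor, showed the largest rise of the 31 genes. It had 0.663, 0.925, 0.977 and 0.700 FPM in control, from 11 to 16 counts, and 7.32, 3.02, 6.15, 10.4 and 2.56 FPM in cirrhosis, from 43 to 202 counts. With eplerenone it had 5.26, 2.94, 10.7, 4.40 and 2.57 FPM. Every rat given CCl4 lay above every control. F3 rose 7.15-fold in cirrhosis (log2FC 2.84, SE 0.52, edgeR FDR 0.00276), and its log2FC ran from 2.55 to 3.03 with any 1 rat left out.

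**Figure D3:**
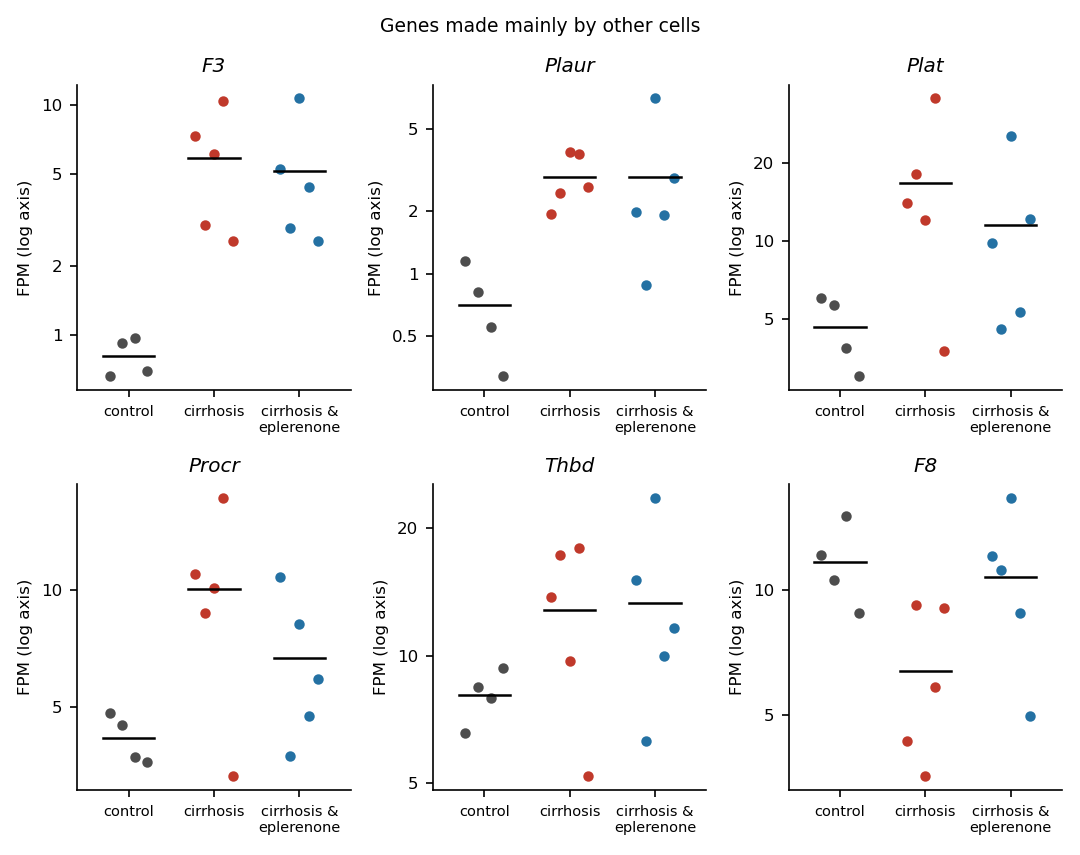
Levels (FPM, log axis) of F3, Plaur, Plat, Procr, Thbd and F8 by group. Points are rats and the line is the group mean (n = 4, 5 and 5). F3 lies above the control range in all 10 CCl4-treated rats, cirrhosis replicate 5 lies among the controls for Plat and below them for Procr and Thbd, and cirrhosis & eplerenone replicate 3 is the highest of its group for F3, Plaur, Plat, Thbd and F8.

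In fibrinolysis, Plaur and Plat rose and the other 4 genes tested were not called. Plaur (ENSRNOG00000037931, chromosome 1), the urokinase receptor, had 1.15, 0.810, 0.549 and 0.318 FPM in control, from 5 to 19 counts, 1.94, 2.45, 3.88, 3.79 and 2.62 in cirrhosis and 1.99, 0.876, 7.04, 1.92 and 2.90 with eplerenone. It rose 4.12-fold in cirrhosis with no overlap (log2FC 2.04, SE 0.55, edgeR FDR 0.0199), a call lost without control 4 or control 5. Plat (ENSRNOG00000019018, chromosome 16), tissue-type plasminogen activator, had 6.03, 5.67, 3.85 and 2.99 FPM in control, 14.0, 18.2, 12.0, 35.6 and 3.75 in cirrhosis and 9.81, 4.57, 25.5, 5.31 and 12.2 with eplerenone. Cirrhosis replicate 5 was within the control range and the other 4 were above it. Plat rose 3.60-fold (log2FC 1.85, SE 0.58, edgeR FDR 0.0363), or with a log2FC of 2.10 without cirrhosis replicate 5, and its call was lost without any 1 control or without cirrhosis 1 or 4. Plau, urokinase, had a log2FC of 0.45 (SE 0.45, edgeR FDR 0.472). Plg, plasminogen, had 2722 to 3627 FPM in control and 1826 to 3127 in cirrhosis (log2FC -0.52, SE 0.28, edgeR FDR 0.181). The plasma brakes on fibrinolysis, Serpinf2, the inhibitor of plasmin, and Cpb2, the carboxypeptidase that trims fibrin, had -0.32 (SE 0.20) and -0.17 (SE 0.21), and Cpb2 turned to 0.13 under total counts.

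**Figure D4:**
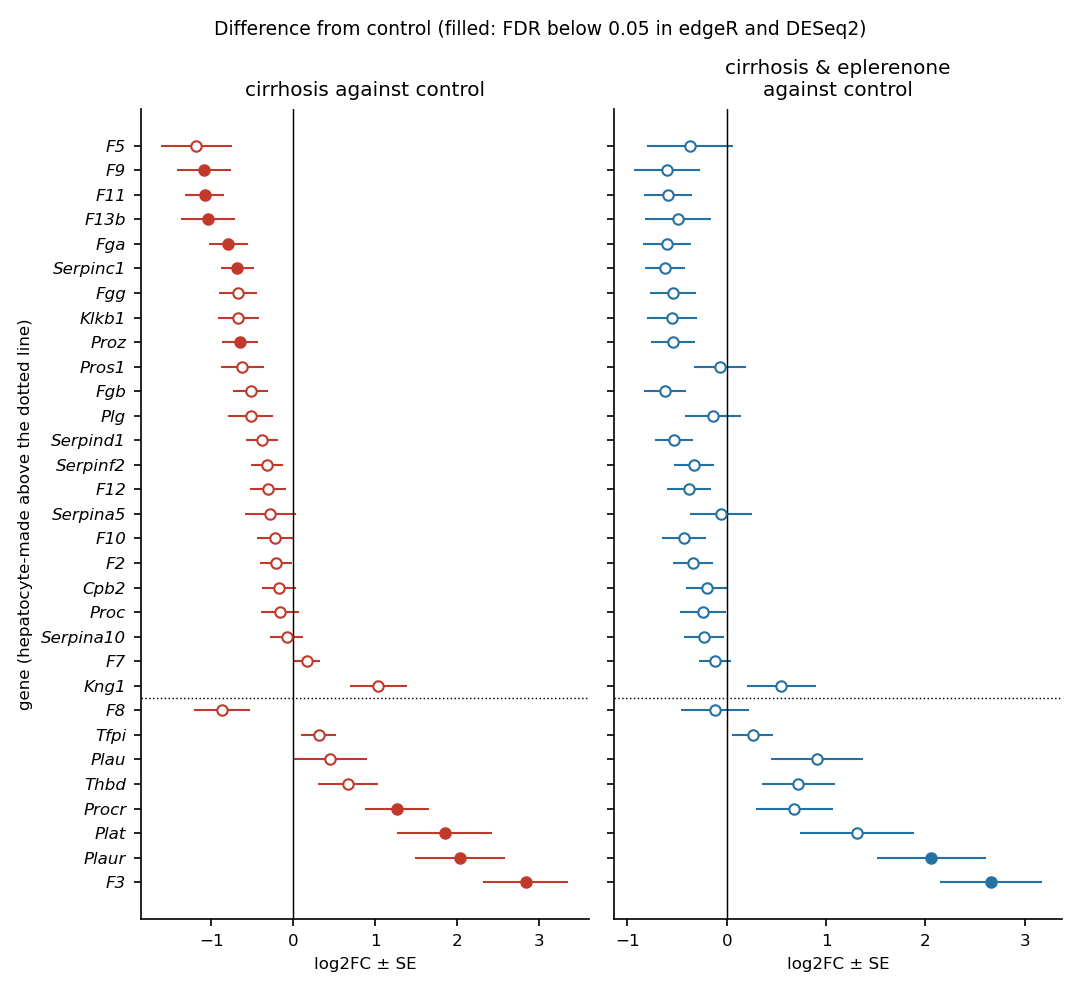
log2FC against control with its SE (edgeR) for 31 genes, in cirrhosis (left, n = 5 against 4) and in cirrhosis & eplerenone (right, n = 5 against 4), which share the same 4 controls. Filled points passed an FDR of 0.05 in edgeR and DESeq2, 10 on the left and 2 (F3 and Plaur) on the right. Under total counts 6 of the 21 hepatocyte-made estimates below 0 on the left turned above it.

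Other genes of the pathway outside the 33 were listed as well. Of 22 listed, 16 were tested, while 4 did not pass the filter (Serpinb2, F2rl1, F2rl2 and F2rl3) and 2 were not analysed here (Kng2 and Kng1l1). Of the 16, 4 were called higher in cirrhosis and 1 lower, beside the shares given above for all genes. Anxa2 and S100a10, which together form a cell-surface docking site for Plat and plasminogen, rose 10.4-fold and 7.23-fold (edgeR FDR 0.00209 and 0.00380). Vwf, von Willebrand factor, which carries factor VIII and tethers platelets, rose 6.45-fold (edgeR FDR 0.00439) and Adamts13, the protease that trims it, fell to 0.387 times control (log2FC -1.37, edgeR FDR 0.0138). Serpine2, protease nexin 1, rose 1.79-fold (log2FC 0.84, edgeR FDR 0.0474), a call that held in 6 of 14 fits without 1 rat, while the other 4 held in all 14. The vitamin K enzymes Ggcx and Vkorc1, which prepare F2, F7, F9 and F10 for secretion, had log2FC of -0.12 (SE 0.14) and -0.23 (SE 0.24), and 0.17 and 0.03 under total counts. Lman1 and Mcfd2, which together carry factors V and VIII out of the endoplasmic reticulum, had -1.05 (SE 0.44, edgeR FDR 0.0944) and -0.63 (SE 0.22, edgeR FDR 0.0511). A2m, a broad protease inhibitor, had 2.70 (SE 0.94, edgeR FDR 0.0546) and F2r, a thrombin receptor, 1.37 (SE 0.51, edgeR FDR 0.0679), neither of them called.

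Markers of other cells were read beside these values, and their directions differed between cell types and within lists. The summed level of 7 stellate cell or myofibroblast markers with a row (of 8) was 53.3 to 87.0 FPM in control, 75.5 to 274 in cirrhosis and 121 to 237 with eplerenone. Of the 7, 6 had estimates above 0 in cirrhosis and 4 were called higher (Des, Acta2, Col1a1 and Tagln). Lrat went the other way (log2FC -1.09, SE 0.49, edgeR FDR 0.118) and was not called. All 5 cholangiocyte markers were called higher in cirrhosis, at a sum of 13.9 to 22.3 FPM in control, 41.5 to 134 in cirrhosis and 44.4 to 85.4 with eplerenone. Of 5 lymphocyte or neutrophil markers 4 were called higher, at 6.36 to 14.4, 21.4 to 38.8 and 12.6 to 38.4 FPM. The 7 macrophage markers summed to 246 to 431, 141 to 494 and 189 to 518 FPM, with 1 called lower (Cd163). The platelet markers summed to 21.2 to 26.7, 18.6 to 44.8 and 10.3 to 24.8 FPM, with Pf4 called higher and Gp1bb at 0 in every library. Pf4 rose 18.9-fold, from 0.127 to 0.794 FPM in control to 3.69 to 19.5 in cirrhosis. Itga2b, the other platelet marker tested, held most of the control sum (mean 23.0 of 23.8 FPM). Its log2FC was -0.45 (SE 0.37) and it was not called. Of the 7 hepatocyte markers, 5 had estimates below 0 in cirrhosis, edgeR called 0 and DESeq2 called 4, of which Ttr, Apob and Apoh were lower and Tf was higher. An unadjusted p below 0.05 in edgeR was found for 4 of the 7, and for 5124 of the 13628 protein coding genes. The median log2FC of the 7 was -0.57 in cirrhosis and -0.42 with eplerenone, both against control. The 23 hepatocyte-made coagulation genes had -0.52 and -0.38, so a fall of this size was not particular to them. The part of the marked cells in the values of the coagulation genes was not tested.

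Rats differed in how far the classes moved. The median log2 ratio to the control mean over the 23 hepatocyte-made genes was -0.52, -0.58, -0.48, -0.61 and -0.37 in cirrhosis 1 to 5 and -0.39, -0.14, -0.95, -0.31 and -0.46 in cirrhosis & eplerenone 1 to 5. The lowest value belonged to cirrhosis & eplerenone replicate 3, which was the lowest of its group for 19 of the 23 genes. Over the 8 genes of other cells the medians were 1.09, 1.08, 0.77, 1.60 and -0.16 in cirrhosis and 0.99, -0.04, 1.59, 0.25 and 0.54 with eplerenone. Cirrhosis & eplerenone replicate 3 was the highest of its group for 7 of these 8 genes, and cirrhosis replicate 5 the lowest of its group for 5 of them. In cirrhosis replicate 5, 20 of the 23 hepatocyte-made genes lay below the lowest control, as many as in cirrhosis replicate 4. That count was not made over all genes, so it cannot be read as particular to these 23.

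**Figure D5:**
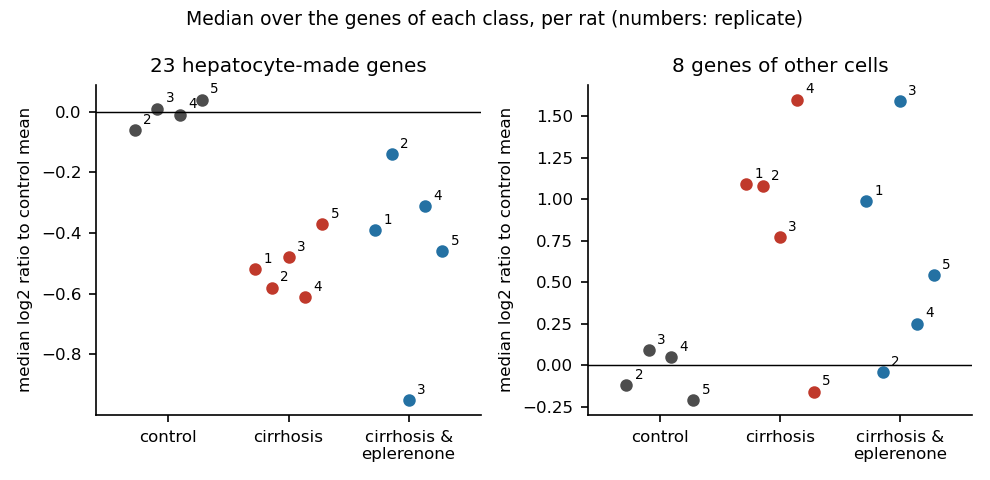
Median log2 ratio to the control mean per rat over 23 hepatocyte-made genes (left) and 8 genes of other cells (right), with replicate numbers beside the points. All 10 CCl4-treated rats lie below 0 on the left, from -0.95 to -0.14, and on the right cirrhosis replicate 5 (-0.16) and cirrhosis & eplerenone replicate 2 (-0.04) lie among the controls.

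To see whether eplerenone changed these genes in cirrhosis, the CCl4 groups were compared directly. None of the 31 genes was called in either direction: edgeR called 0 and DESeq2 called 0, and 2 had an unadjusted p below 0.05 in edgeR, Pros1 (log2FC 0.55, SE 0.25, edgeR FDR 0.335) and F8 (log2FC 0.75, SE 0.32, edgeR FDR 0.328). Of all 13628 protein coding genes, 0.0147% were called higher and 0% lower, and 1971 had an unadjusted p below 0.05 in edgeR. The median log2FC was 0.06 over the hepatocyte-made genes, -0.02 over the others and 0.01 over all genes. No member's groups were free of overlap, a count that was not made over all genes. Genes called lower in cirrhosis had estimates above 0 here, at 0.48 (SE 0.23) for F11, 0.49 (SE 0.31) for F9, 0.55 (SE 0.31) for F13b, 0.19 (SE 0.23) for Fga, 0.12 (SE 0.21) for Proz and 0.06 (SE 0.19) for Serpinc1. Because the cirrhosis samples enter both comparisons, opposite signs are not independent evidence. Fgb was at -0.09 (SE 0.20) and F3 at -0.18 (SE 0.42). Of the 16 other pathway genes 0 were called by either tool, while 4 had an unadjusted p below 0.05, beside the 1971 of all protein coding genes. These were Vwf (log2FC -1.17), Anxa2 (-1.31), Adamts13 (0.74) and Tfpi2 (1.32).

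The same comparison was also made without the pair of rats named above. With both left out, F9 (log2FC 0.90, edgeR FDR 0.0459), F11 (0.72, edgeR FDR 0.0297) and Pros1 (0.86, edgeR FDR 0.0204) were called higher with eplerenone, and Plat (-1.34, edgeR FDR 0.0486) and Kng1 (-0.96, edgeR FDR 0.0277) lower, beside 4.42% of all protein coding genes called higher and 4.80% lower. The rats were named with their values known, 1 for lying near control and 1 for lying far from it, so leaving them out pulls the groups apart by construction. With only 1 of the 10 rats of these groups or 1 control left out, none of the 31 genes was called. Within label prefix 15 the median eplerenone log2FC of the hepatocyte-made genes was 0.19 and within prefix 20 it was -0.03. For the other class these medians were -0.41 and 0.26. Both rats of the pair carried prefix 20, so the split by prefix is not separate evidence from leaving the pair out. Each prefix also held only a part of each CCl4 group, so these medians rest on few rats. An interaction of eplerenone and prefix passed an FDR of 0.05 in edgeR for 0 of the 31 genes, the smallest FDR being 0.392. An unadjusted p below 0.05 was found for 1 of them, and for 1689 of the 13795 genes in that fit.

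Against control, the cirrhosis & eplerenone group had 2 of the 31 genes called higher, beside 4.50% of all protein coding genes, and 0 called lower, beside 0.829%. F3 rose 6.31-fold (log2FC 2.66, SE 0.51, edgeR FDR 0.00997), higher in 5 of 5 rats than in any control, a call that held without any 1 rat. Plaur rose 4.16-fold (log2FC 2.06, SE 0.55, edgeR FDR 0.0423), with 4 of 5 rats above all controls. Without cirrhosis & eplerenone replicate 3 its log2FC was 1.44 and its call was lost, and the call held in 4 of 14 fits without 1 rat. Plat had 1.31 (SE 0.57, edgeR FDR 0.201) and Procr 0.68 (SE 0.39, edgeR FDR 0.355). For the hepatocyte-made genes, edgeR called 0 lower and DESeq2 called 4 (Fga, Fgb, Serpinc1 and Serpind1). An unadjusted p below 0.05 in edgeR was found for 8 of the 23, and for 2849 of the 13628 protein coding genes. Their median log2FC was -0.38, beside 0.82 over the other class and 0.01 over all genes, and 22 of the 23 estimates were below 0, 15 of them under total counts, where the median of all genes moved up by 0.32. Serpinc1 (log2FC -0.62, SE 0.20, edgeR FDR 0.0855) and Fgb (log2FC -0.62, SE 0.21, edgeR FDR 0.109) lay below control in all 5 rats. Outside the list, Anxa2 and S100a10 were called higher, by 4.19-fold and 4.02-fold (edgeR FDR 0.0418 and 0.0417), and neither was called without cirrhosis & eplerenone replicate 3 (edgeR FDR 0.114 for both). Both calls were also lost without any 1 control, without cirrhosis replicate 1 and without cirrhosis & eplerenone replicate 1 or 5.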

How the data were processed

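The deposited table holds whole-number read counts per gene, made by the authors from poly(A) RNA reads with HISAT2 2.1.0 and featureCounts against rn6 and its Ensembl annotation, per the submitters' processing notes and the study's methods, with reads that fit several places counted at each. Whether strand was used is not given in the sources used here, so overlapping antisense genes cannot be told apart. Of 15 labelled samples, 14 had a column. Counts were analysed in R 4.3.3 with edgeR 4.0.16 (TMM, filterByExpr with a smallest count of 10, quasi-likelihood test, 1 fit over the 3 groups) and DESeq2 1.42.0 (Wald test), and calls needed a Benjamini-Hochberg FDR below 0.05 in both, the study's own rule. Fold changes and FDRs printed are edgeR's unless named otherwise, and percentages of all genes refer to protein coding genes. No library held a count for 11341 genes. FPM are CPM values on TMM-scaled library sizes. P-values measure the spread between rats, each counted as 1 replicate, and no pair of libraries looked like a repeat deposit. The 33 genes, their classes, the 22 further pathway genes, the 8 liver transcription factors and the marker lists were chosen with earlier results of these data known. All 33 are named, and values by rat are given for the fibrinogen chains, F3, F8 and at most 6 called genes per class by absolute log2FC. Alternatives were RLE size factors, total counts, no filter, at least 10 counts in every sample, either tool alone, a replicate block, each rat left out and both doubted rats left out. A term for the label prefix was fitted within the CCl4 groups. Scripts were tested on simulated data. Promoter windows are RefSeq's on GRCr8, matched by symbol and set beside no coordinates of the count table, which uses rn6. Protein sequences were not used here, and some items are not reported here.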

Additional observations from a re-analysis of the deposited data

Results flagged for a closer look

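Of 141 sets of values, 1 gene in 1 group each, 4 held a rat far from the others by Dixon's criterion, and chance alone marks about 1 in 20 such sets. None of the 4 concerns 1 of the 33 genes. F2r, a thrombin receptor, was at 14.2 FPM in cirrhosis & eplerenone replicate 3, against 2.88 to 4.97 in the other rats of that group. A2m, a broad protease inhibitor, was at 148 FPM in cirrhosis replicate 4, against 13.3 to 43.9. Vkorc1, which recycles vitamin K, was at 254 FPM in control replicate 3, against 188 to 199, and at 223 FPM in cirrhosis & eplerenone replicate 5, against 150 to 169.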

How the results depend on the processing

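For cirrhosis against control, the 4 genes called higher became 2 with a replicate block (F3 and Plaur), beside 8.68% of all protein coding genes, and ranged from 1 to 5 with 1 rat left out, beside 7.29% to 18.4%. The 6 called lower became 1 with total counts (2.47% of all), 3 with no filter (4.01%), 10 with DESeq2 alone (9.94%), 2 with the block (F11 and F13b, 3.71%) and 12 without cirrhosis replicate 5 and cirrhosis & eplerenone replicate 3 (14.9%), and ranged from 1 to 10 with 1 rat left out (2.19% to 14.1%). The 5 other pathway genes became 8 with DESeq2 alone (18.3% of all higher and 9.94% lower) and 9 without that pair (19.7% and 14.9%), and ranged from 4 to 9. For eplerenone against cirrhosis, 0 became 3 higher, 2 lower and 3 other pathway genes without the pair (4.42% and 4.80% of all higher and lower). For eplerenone against control, the 2 higher became 1 with at least 10 counts in every sample (2.83%), with the block (1.67%) and without the pair (4.08%), and ranged from 1 to 2, while 0 lower became 4 with DESeq2 alone (2.07%). The 2 other pathway genes, both higher, became 4 with total counts, where the share of all genes called higher also went from 4.50% to 9.25%. They became 0 with at least 10 counts in every sample (2.83%) or with the block (1.67%), and ranged from 0 to 3 with 1 rat left out (1.27% to 7.19%). Every sign that turned belonged to a gene with no call in that comparison. With total counts, which raised the median of all genes, log2FC turned in cirrhosis for F2 (0.07), F10 (0.05), Proc (0.10), Serpina5 (0.03), Serpina10 (0.20), Cpb2 (0.13), Serping1 (0.10), Plgrkt (0.16), Ggcx (0.17) and Vkorc1 (0.03), for eplerenone against control in F7 (0.17), Proc (0.04), Pros1 (0.19), Plg (0.12), Serpina5 (0.24), Serpina10 (0.07), Cpb2 (0.09), F8 (0.26), Vkorc1 (0.00), Vkorc1l1 (0.15) and Lman1 (0.06), and against cirrhosis in Tfpi (0.01) and Serpine2 (0.02). Without the pair, signs turned for Serpina10 (0.07) in cirrhosis, Serpinf2 (0.07), Cpb2 (0.11), Plaur (-0.66) and Thbd (-0.47) for eplerenone against cirrhosis, and Pros1 (0.11), Plg (0.03) and Tfpi2 (-0.49) against control. For eplerenone against cirrhosis Plaur also turned with DESeq2 alone (-0.00), the block (-0.14) and a label prefix term (-0.30), and with that term Serpine2 (0.07) and Habp2 (0.15), while Tfpi2 turned against control with the block (-0.16). With 1 rat left out, signs turned in cirrhosis for Serpina10 (-0.18 to 0.04). For eplerenone against cirrhosis they turned for F12 (-0.17 to 0.02), Fgg (-0.02 to 0.21), Proc (-0.17 to 0.03), Proz (-0.02 to 0.25), Serpinc1 (-0.01 to 0.16), Serpinf2 (-0.12 to 0.09), Klkb1 (-0.00 to 0.28), Cpb2 (-0.12 to 0.10), F3 (-0.66 to 0.14), Plaur (-0.63 to 0.24), Thbd (-0.28 to 0.24), Tfpi (-0.23 to 0.06), Serpine2 (-0.22 to 0.14), F2r (-0.83 to 0.20), A2m (-0.61 to 0.79), Habp2 (-0.27 to 0.14) and Vkorc1 (-0.20 to 0.10), and against control for Pros1 (-0.25 to 0.11), Plg (-0.29 to 0.03), Serpina5 (-0.18 to 0.13), F8 (-0.33 to 0.06), Tfpi2 (-0.49 to 0.22), Ggcx (-0.02 to 0.09), Vkorc1l1 (-0.37 to 0.01) and Lman1 (-0.44 to 0.02). Causes were not tested where the setting's own construction does not show them. Of the log2FC recomputed for single genes, 2876 kept their direction and side of the threshold, 111 fell short of it, 65 newly passed it and 91 turned. Equal replicate numbers did not pair rats, since over 13 pairs correlations ran from -0.33 to 0.19 and 3 were over 0.1. At 11 to 16 counts for F3 and 5 to 19 for Plaur in control, fold sizes of these genes are the least precise.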

Other observations

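Transcription factors that switch on liver genes were measured in the same libraries. Of their sites, only those of HNF4 and C/EBP were searched in the promoters above. Of 8 tested, 3 were called lower in cirrhosis and 0 higher, beside 6.72% and 13.8% of all protein coding genes, with a median log2FC of -0.75 (-0.01 over all genes tested). Hnf4a, a nuclear receptor of mature hepatocytes, had means of 513 FPM in control, 293 in cirrhosis and 354 with eplerenone. It fell by 0.81 on the log2 scale (SE 0.24, edgeR FDR 0.0290), and its 331 to 661 FPM in control overlapped 220 to 374 in cirrhosis. Foxa2, a pioneer factor of endoderm, fell by 1.33 (47.9, 19.0 and 24.3 FPM, SE 0.39, edgeR FDR 0.0298). Its 17.2 to 83.6 FPM in control overlapped 12.0 to 26.0 in cirrhosis. Prox1, which acts in hepatocytes and lymphatic endothelium, fell by 1.49 (73.7, 26.3 and 45.9 FPM, SE 0.48, edgeR FDR 0.0423) without overlap. Calls with 1 rat left out were not checked for these factors. Cebpb, a factor of the acute-phase response, had 187, 317 and 329 FPM (log2FC 0.76) and was not called, nor were Foxa1 (-1.68), Onecut1 (-0.69), Nr5a2 (-0.47) and Cebpa (-0.22). For eplerenone against cirrhosis all 8 estimates were above 0 with a median of 0.45, with 0 called by edgeR, 0 by DESeq2 and 0 with an unadjusted p below 0.05. Against control, the eplerenone group had a median of -0.43. Any link of these factors to the coagulation genes was not tested.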
